A study of Mus musculus with 6 samples.

Results

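RNA of hemoglobin genes was measured in explanted embryonic ureters, and 9 genes of red cells were followed: the beta-type globins *Hbb-y*, *Hbb-bh1*, *Hbb-bs* and *Hbb-bt*, the alpha-type globins *Hba-x*, *Hba-a1* and *Hba-a2*, and 2 non-globin genes, *Alas2* and *Slc4a1*. They were chosen by symbol, and all 9 were found among the 56748 gene identifiers of the count table. The ureters came from wildtype NMRI mouse embryos at E12.5 and were cultured for 18 h on transwell membranes, either with water (control) or with LiCl at 15 mM, which inhibits GSK3B, a kinase that marks beta-catenin for decay, and thereby activates canonical WNT signaling. Stranded RNA-Seq libraries were made from poly-A RNA of 3 control and 3 LiCl samples. The labels do not say whether the samples of a group came from separate litters or pools, so p-values measure the spread between these samples, which may be partly technical. All genotypes were wildtype, and no blood lineage was labelled, sorted or removed according to the labels.

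Hemoglobin is a tetramer of alpha-type and beta-type globin chains, each of which holds a heme group. The red cells that circulate first in the mouse embryo arise in the yolk sac (primitive erythropoiesis) and express the embryonic globins *Hbb-y*, *Hbb-bh1* and *Hba-x* together with adult alpha globin. The later definitive red cells arise in the fetal liver and rely on *Hbb-bs*, *Hbb-bt*, *Hba-a1* and *Hba-a2*. Within the primitive lineage, *Hbb-bh1* and *Hba-x* are most active in young cells, while *Hbb-y* and adult alpha globin gain weight as the cells mature. Alas2 performs the rate-limiting step of heme synthesis in erythroid cells, and Slc4a1 (band 3) is the anion exchanger of the red cell membrane, to which the membrane skeleton is tied.

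Promoters are shown for 5 of the tested globin members, whose log2 fold changes after LiCl had the same sign, and for *Alas2* as a non-globin member. *Hbb-bh1* and *Slc4a1* are not shown. The 130 bases before the annotated start are printed from RefSeq (GRCm38.p6), 5′ to 3′ on the strand of the gene, with capitals at every match of 4 motifs, each searched on both strands, so that a match on the other strand appears as the reverse complement. The motifs were CCAAT, a box found in many promoters, the letters CACCC, which Klf-type factors are known to bind, a TATA box written as TATAA, and a GATA motif written as AGATAA. The windows lie at chr7:103853208-103853337 (minus strand), chr7:103827929-103828058 (minus strand), chr7:103813924-103814053 (minus strand), chr11:32276470-32276599 (plus strand), chr11:32283542-32283671 (plus strand) and chrX:150547287-150547416 (plus strand).
Hbb-y: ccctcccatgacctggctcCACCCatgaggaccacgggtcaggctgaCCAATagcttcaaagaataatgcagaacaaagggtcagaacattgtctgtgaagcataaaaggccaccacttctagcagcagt
Hbb-bs: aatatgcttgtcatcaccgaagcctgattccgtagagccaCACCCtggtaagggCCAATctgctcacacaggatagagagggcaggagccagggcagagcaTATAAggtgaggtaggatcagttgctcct
Hbb-bt: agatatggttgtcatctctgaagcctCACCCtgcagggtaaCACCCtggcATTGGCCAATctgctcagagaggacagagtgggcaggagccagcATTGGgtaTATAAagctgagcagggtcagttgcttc
Hba-x: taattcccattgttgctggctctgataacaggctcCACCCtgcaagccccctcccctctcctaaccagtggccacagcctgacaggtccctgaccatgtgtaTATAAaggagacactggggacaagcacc
Hba-a1: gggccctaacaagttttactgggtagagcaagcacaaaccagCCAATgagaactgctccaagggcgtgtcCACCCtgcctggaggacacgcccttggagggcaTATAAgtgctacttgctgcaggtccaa
Alas2: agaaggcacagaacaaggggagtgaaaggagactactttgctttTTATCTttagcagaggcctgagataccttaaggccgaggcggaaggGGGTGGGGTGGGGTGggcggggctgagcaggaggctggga

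CACCC was found in all 6 windows shown, against 33.7% of 32817 promoter windows of the same length. CCAAT stood in the windows of *Hbb-y*, *Hbb-bs*, *Hbb-bt* and *Hba-a1*, against 22.4% of all windows, and the letters TATAA in those of *Hbb-bs*, *Hbb-bt*, *Hba-x* and *Hba-a1*, against 12.7%. In *Hbb-bt*, CCAAT was matched 3 times, and a reversed match lies directly before a forward match, so that their capitals run together. AGATAA was matched only in *Alas2* among these windows, on the strand opposite to the gene, against 4.79% of all windows. Other spellings of a GATA motif were not searched, and the *Hba-x* window holds the letters TGATAA. The *Alas2* window holds 3 reversed CACCC matches in a row. These matches describe letters in a short window and are not binding sites measured in the explants.

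The transcripts of some members are so alike that reads may not be assigned to the right copy. *Hba-a1* and *Hba-a2* transcripts of GENCODE vM21 were 99.8% identical over 538 aligned bases and shared an identical run of 415 bases, and *Hbb-bs* and *Hbb-bt* were 92.7% identical over 626 bases with a run of 430. Of all 150-base words, 57.0% of those of *Hba-a1* and 73.1% of those of *Hba-a2* occurred in the other gene, as did 45.6% of those of *Hbb-bs* and 50.7% of those of *Hbb-bt*. Levels within each of these pairs are therefore uncertain, whereas *Hbb-y*, *Hbb-bh1* and *Hba-x* shared 0 such words with any other globin member. How reads that match both copies of a pair were counted was not examined, and they may be missing from both. Sums of a pair, and ratios that set such a pair against other globins, carry this limit. The assembly used by the authors carries *Hbb-bs* and *Hbb-bt*. *Hbb-b1* and *Hbb-b2*, which RefSeq also lists among the beta-type genes, were not analysed here, and which adult beta genes NMRI embryos carry was not examined.

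Total counts per sample lay between 28473436 and 31266945, and the 7 globin members took 0.0478%, 0.0712% and 0.0658% of the counts in the control samples (replicates 1, 2 and 3, an order kept below) and 0.0628%, 0.0949% and 0.0943% in the LiCl samples. The Wilson 95% intervals, which cover counting error only, ran from 0.0470% to 0.0486% in control replicate 1 and from 0.0702% to 0.0721% in control replicate 2, whereas those of LiCl replicates 2 and 3 overlapped (0.0938% to 0.0961% and 0.0932% to 0.0955%). Genes typical of the ureter were present, with summed CPM (counts scaled to a common library size with TMM factors) of at least 1744 over 8 genes of the ureteric mesenchyme and of at least 797 over 8 genes of the ureteric epithelium in every sample. In these bulk samples, fewer red cells and less globin RNA per red cell cannot be told apart.

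*Hbb-y* (ENSMUSG00000052187), the embryonic epsilon-type chain, was by far the most expressed member. FPKM, the count scaled by depth and gene length, was 436, 687 and 626 without and 599, 935 and 884 with LiCl. By mean FPKM it ranked 18 among 30444 genes with a value in the control, and 12 after LiCl. Replicate 1 was the lowest in both groups, and LiCl replicate 1 lay below control replicates 2 and 3, so the groups overlapped. The mean was 583 ± 131 FPKM in the control and 806 ± 181 after LiCl (SD, n = 3 each). In edgeR's quasi-likelihood test the log2 fold change was 0.45 (SE 0.18), with a Benjamini-Hochberg adjusted p of 0.076.

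*Hbb-bh1* (ENSMUSG00000052217), the embryonic beta-type chain of young primitive red cells, was far weaker. Its FPKM was 10.1, 19.7 and 14.8 in the control and 18.8, 33.0 and 26.8 after LiCl. Again replicate 1 was the lowest of each group, and only LiCl replicate 1 fell inside the control range. *Hbb-bh1* rose by a log2 fold change of 0.80 (SE 0.25; edgeR, adjusted p = 0.026), the largest change of the members tested, with a 95% interval from 0.24 to 1.35.

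*Hba-x* (ENSMUSG00000055609), the embryonic zeta-type alpha chain, had 33.3, 70.1 and 53.0 FPKM in the control and 58.7, 102 and 84.3 FPKM after LiCl. The groups overlapped, and the highest of the control samples was 2.08 times the lowest. The log2 fold change of 0.63 (SE 0.25) did not pass (edgeR, adjusted p = 0.072), with a 95% interval from 0.06 to 1.20.

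*Hba-a1* (ENSMUSG00000069919), an adult alpha chain that primitive red cells also use, was the member with the next highest level after *Hbb-y*. FPKM was 166, 190.5 and 201 in the control and 194, 274 and 325 after LiCl. The control samples lay close together, and the LiCl samples differed among themselves by a factor of 1.68. *Hba-a1* rose by a log2 fold change of 0.49 (SE 0.16; edgeR, adjusted p = 0.031).

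*Hba-a2* (ENSMUSG00000069917), which encodes the same kind of chain from a neighbouring copy, was at the limit of detection and not tested. Its counts were 1, 26 and 10 in the control and 2, 15 and 8 after LiCl, against 3948 or more for *Hba-a1* in every sample. Given the near-identical transcripts, the split between these copies is uncertain. Their sum does not depend on this split, but it may be too low if reads that match both copies were not counted.

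*Hbb-bs* (ENSMUSG00000052305), an adult beta chain, was the only member whose groups did not overlap. FPKM was 23.0, 19.9 and 23.1 in the control and 29.0, 31.2 and 37.9 after LiCl, so that every LiCl sample lay above every control. Among all tested genes 26.4% were higher in every LiCl sample, so 1 of 9 members is not above that background. *Hbb-bs* rose by a log2 fold change of 0.55 (SE 0.11; edgeR, adjusted p = 0.0030). It was also the only member whose lowest control sample was not replicate 1.

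*Hbb-bt* (ENSMUSG00000073940), the other adult beta chain, had 6.51, 11.1 and 10.2 FPKM in the control and 9.48, 16.1 and 17.3 FPKM after LiCl. LiCl replicate 1 lay inside the control range, and the log2 fold change of 0.61 (SE 0.25) did not pass the test (edgeR, adjusted p = 0.074).

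The non-globin members were present at low levels. *Alas2* (ENSMUSG00000025270) had 1.62, 2.40 and 2.14 FPKM in the control and 1.61, 3.08 and 2.37 FPKM after LiCl, with groups that overlapped almost fully. Its log2 fold change was 0.17 (SE 0.23; edgeR, adjusted p = 0.58), with a 95% interval from -0.35 to 0.70. *Slc4a1* (ENSMUSG00000006574) had 1.36, 2.73 and 2.41 FPKM in the control and 0.836, 2.51 and 2.18 FPKM after LiCl. LiCl replicate 1 was the lowest of all samples for this gene. The log2 fold change of *Slc4a1* was -0.26 (SE 0.36; edgeR, adjusted p = 0.60), with a 95% interval from -1.08 to 0.56 that leaves a change of either sign possible.

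**Figure D1:**
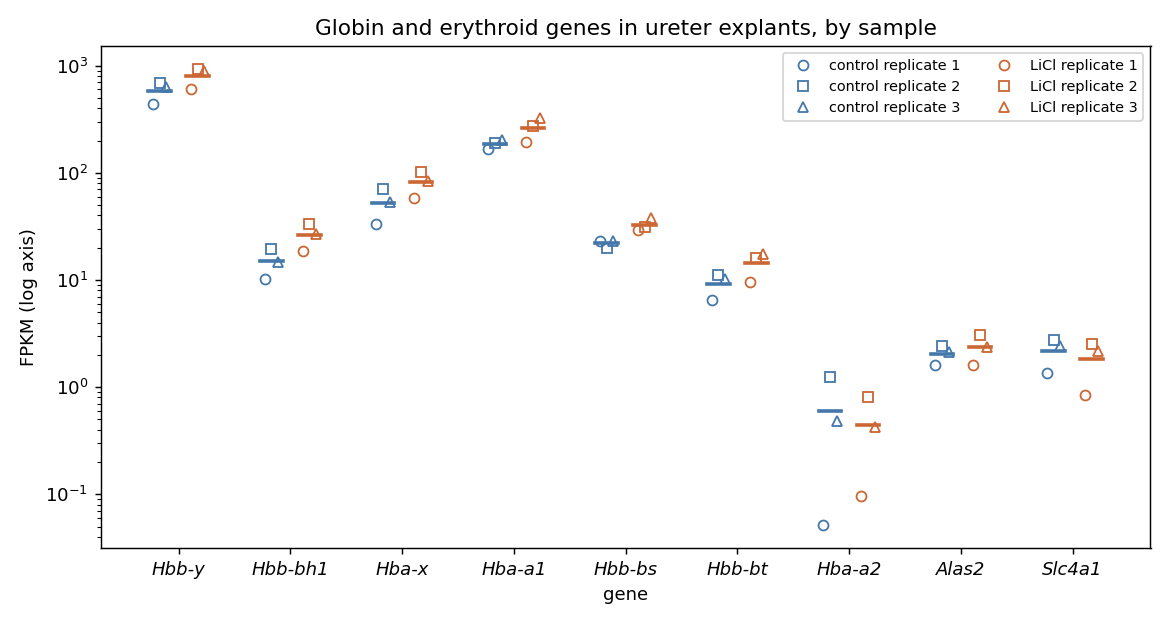
FPKM (log axis) of the 9 genes in each of the 6 samples, with symbols for the replicates and bars for the group means. The levels span from *Hbb-y* at 436 to 935 FPKM down to *Hba-a2* at 0.0512 to 1.25 FPKM, and only for *Hbb-bs* do all LiCl samples lie above all controls.

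Calls needed an adjusted p under 0.05 together with a change of more than 1 on the log2 scale in either direction. By this rule 0 of the 8 tested members were called in edgeR and 0 in DESeq2. Over all 18188 genes tested, 2.74% were called higher and 4.59% lower. At an adjusted p under 0.05 alone, 3 of 8 members rose (*Hbb-bh1*, *Hbb-bs* and *Hba-a1*) and 0 fell, against 21.1% and 22.4% of all tested genes. All 6 tested globin members had a log2 fold change above 0, from 0.45 to 0.80 with a median of 0.58, whereas the median of all tested genes was -0.01. The globins were measured in the same samples and may come from the same cells. They are not taken as independent of each other, so this shared sign is not a test. The number that rose at an adjusted p under 0.05 was 6 without LiCl replicate 1 and 1 without control replicate 1, control replicate 3, LiCl replicate 2 or LiCl replicate 3, and *Hbb-bs* was past the threshold in each of these. With DESeq2, *Hbb-bh1* and *Hba-a1* did not pass (adjusted p = 0.060 and 0.064), and *Hbb-bt* did (adjusted p = 0.018).

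**Figure D2:**
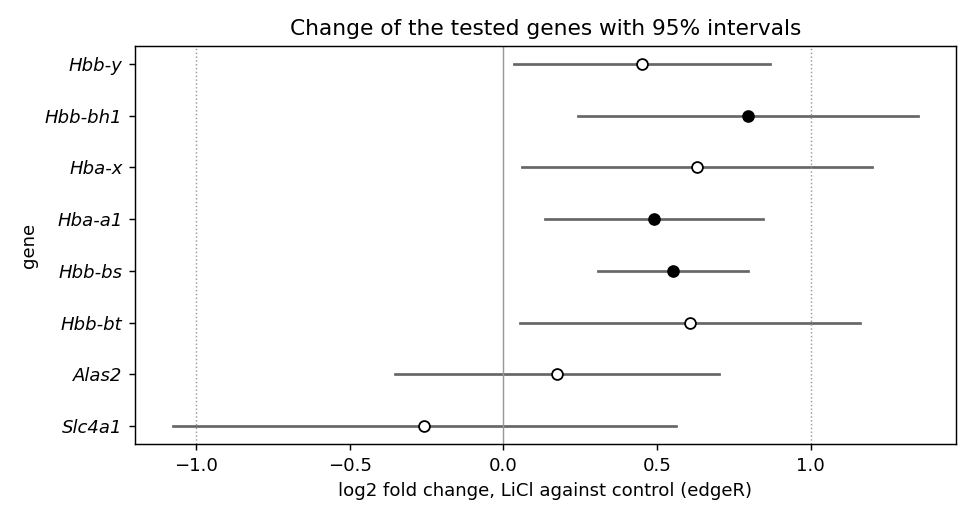
Log2 fold change of the 8 tested genes after LiCl with 95% intervals from edgeR, filled where the adjusted p was under 0.05, with dotted lines at the fold threshold. The intervals of all 6 globins lie above 0 and those of *Alas2* and *Slc4a1* include 0, while no estimate reaches 1. These intervals are not adjusted for the number of genes tested.

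The members mostly shared their lowest sample within a group, with *Hbb-bs* as an exception in the control. Control replicate 1 had the lowest CPM of the control samples for 8 of 9 members, and LiCl replicate 1 the lowest of the LiCl samples for 9 of 9. The highest control sample was replicate 2 for 7 of 9, and the highest LiCl sample was replicate 2 for 6 of 9. Among the 8 tested members, the spread within a group was a factor of 1.56 for *Hbb-y* in both groups, reached 3.01 for *Slc4a1* after LiCl and was smallest for *Hbb-bs* in the control at 1.17. *Hba-a2*, at a few counts, spread by a factor of 24.1 in the control and 8.34 after LiCl. Over the 6 samples, which share their groups, Pearson's r of log2 CPM between tested members was 0.99 for *Hbb-y* with *Hbb-bt*, 0.60 for *Hbb-y* with *Hbb-bs*, 0.23 for *Hbb-bs* with *Alas2* and -0.14 for *Hbb-bs* with *Slc4a1*, given as a description. In LiCl replicate 1, *Slc4a1* lay 1.16 log2 units below its mean over the 6 samples (deviation -1.16), whereas *Hbb-bs* was 0.11 above its own mean. When both first replicates were left out, a choice made after these values were seen, 6 members rose at an adjusted p under 0.05 (edgeR) and 0 were called with the fold threshold.

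**Figure D3:**
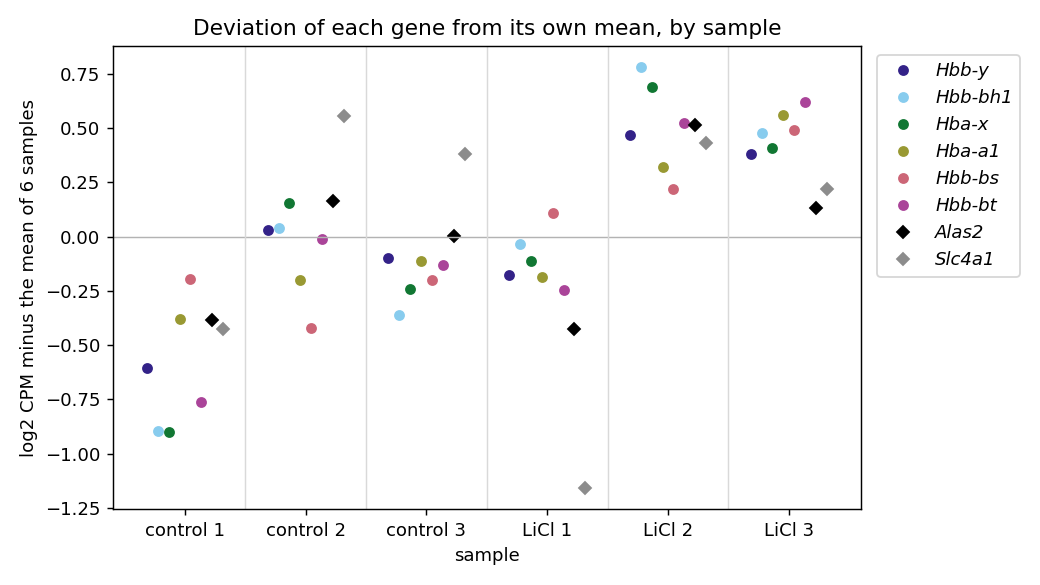
Log2 CPM of each tested gene minus its own mean over the 6 samples, with circles for globins and diamonds for *Alas2* and *Slc4a1*. In control replicate 1 every gene lies below 0, in LiCl replicates 2 and 3 every gene lies above 0, and *Slc4a1* in LiCl replicate 1 is the lowest point at -1.16.

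By mean FPKM over the 6 samples the order was *Hbb-y* (695), *Hba-a1* (225), *Hba-x* (66.9), *Hbb-bs* (27.3), *Hbb-bh1* (20.5), *Hbb-bt* (11.8), *Alas2* (2.20), *Slc4a1* (2.00) and *Hba-a2* (0.519). Each gene lay above the next in 6 of 6 samples, with the exception of *Hbb-bs* above *Hbb-bh1* (5 of 6) and *Alas2* above *Slc4a1* (4 of 6), which do not differ beyond their spread. *Hbb-y* exceeded *Hba-a1* by a factor of 2.63 to 3.61, and *Hba-a1* exceeded *Hba-x* by 2.69 to 4.99.

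Ratios of FPKM within a sample do not depend on the scaling between samples, and they describe the make-up of globin RNA rather than its amount. Besides the 7 globin members, the sums include *Hbq1a*, *Hbq1b* and *Hbb-bh2*. Of these, *Hbq1a* had 0 counts in all samples, which allows up to 3 counts per sample, *Hbb-bh2* had 0 to 4 counts and *Hbq1b* 8 to 20. Each of 16 ratios was compared by a two-sided exact permutation test of 3 against 3 samples, in which the smallest possible p is 0.1, so that no ratio could pass 0.05.

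No difference in the ratio of alpha-type to beta-type globin RNA was detectable with 3 samples per group. The alpha-type sum divided by the beta-type sum was 0.420, 0.356 and 0.378 in the control and 0.385, 0.372 and 0.425 after LiCl. Means were 0.385 ± 0.032 and 0.394 ± 0.027 (SD, n = 3 each), the groups overlapped, and the exact permutation p was 0.7.

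As counted, the beta-type RNA was almost entirely embryonic, a share that may be too high. Reads shared by *Hbb-bs* and *Hbb-bt* may be missing, and *Hbb-b1* and *Hbb-b2* were not analysed. *Hbb-y* and *Hbb-bh1* made up 93.8%, 95.8% and 95.1% of the beta-type sum in the control and 94.1%, 95.3% and 94.3% after LiCl (exact permutation p = 0.8, n = 3 each). The alpha-type RNA was mostly adult, as *Hba-x* made up 16.7%, 26.7% and 20.8% of the alpha-type sum in the control and 23.2%, 27.0% and 20.6% after LiCl (exact permutation p = 0.5, n = 3 each). *Hba-x* had the widest spread of these shares, and both groups covered a similar range.

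Within the embryonic beta genes, the share of *Hbb-y* was lower in every LiCl sample than in every control. It was 97.7%, 97.2% and 97.7% of *Hbb-y* plus *Hbb-bh1* in the control and 97.0%, 96.6% and 97.1% after LiCl. The means were 97.5% ± 0.28 and 96.9% ± 0.25 (SD, n = 3 each), a difference of -0.68 percentage points with an exact permutation p of 0.1, the smallest possible, and 0.53 after adjustment over the 16 ratios. *Hbb-bh1* as a share of all globin RNA was 1.50%, 1.96% and 1.59% in the control and 2.07%, 2.37% and 1.95% after LiCl, which overlapped (exact permutation p = 0.2, n = 3 each).

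Among the adult beta genes, *Hbb-bs* held 77.9%, 64.3% and 69.5% of *Hbb-bs* plus *Hbb-bt* in the control and 75.3%, 65.9% and 68.6% after LiCl (exact permutation p = 0.9, n = 3 each). Replicate 1 of both groups had the highest *Hbb-bs* share. *Hbb-y* alone was 64.6% to 68.7% of all globin RNA in the control and 64.2% to 67.1% after LiCl, *Hba-a1* was 19.0% to 24.6% and 19.7% to 23.6%, and neither share differed beyond its spread.

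Globin RNA was also set against the non-globin members, a choice made after the values were seen. All globins divided by *Alas2* gave 417, 417 and 435 in the control and 566, 452 and 581 after LiCl. All globins divided by *Slc4a1* gave 496, 367 and 387 in the control and 1088, 554 and 633 after LiCl. Both ratios were higher in every LiCl sample, with means of 423 ± 10.3 and 533 ± 70.2 for *Alas2* and of 417 ± 69.5 and 758 ± 288 for *Slc4a1* (SD, n = 3 each; exact permutation p = 0.1 for both, adjusted p = 0.53). The difference for *Slc4a1*, 341, was 177 without LiCl replicate 1 and up to 444 without another replicate. *Alas2* divided by *Slc4a1* was 1.19, 0.881 and 0.889 in the control and 1.92, 1.22 and 1.09 after LiCl, and the groups overlapped (exact permutation p = 0.2, n = 3 each).

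**Figure D4:**
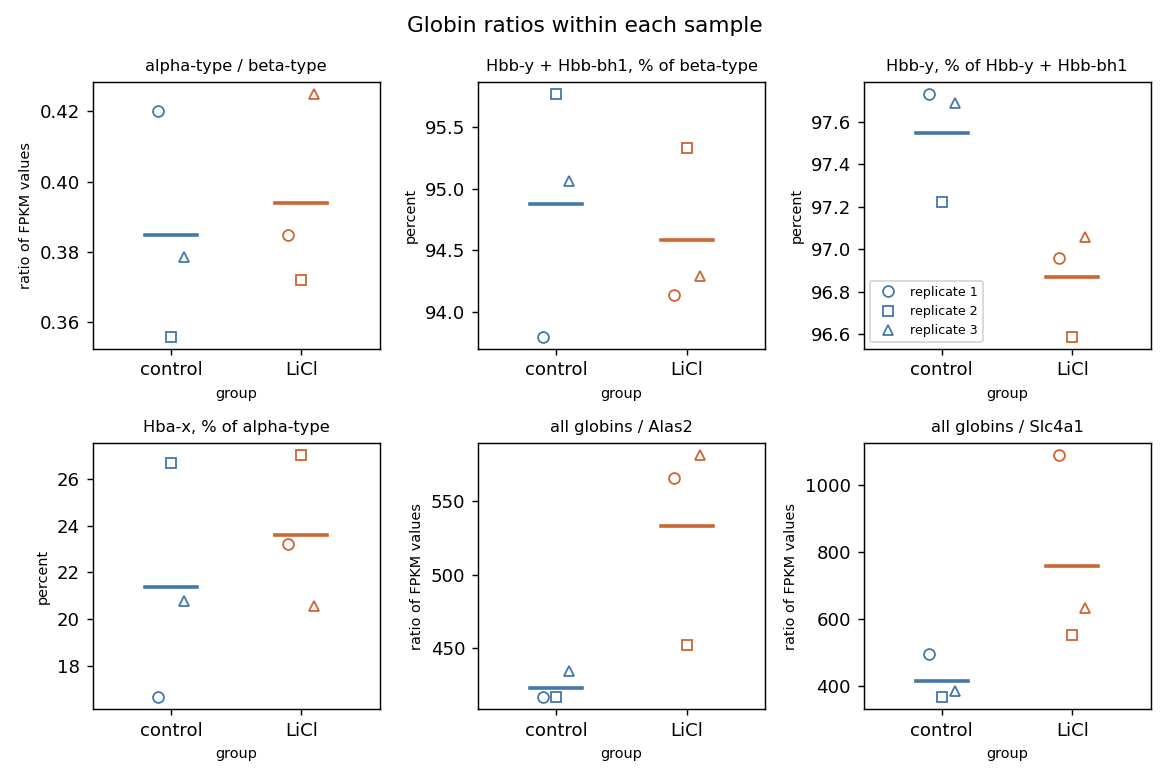
Ratios and shares of FPKM within each sample for control and LiCl, with symbols for the replicates and bars for the group means. Axes do not start at 0; the share of *Hbb-y* in *Hbb-y* plus *Hbb-bh1* and the 2 ratios of all globins to *Alas2* and to *Slc4a1* do not overlap between groups, and the others do.

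Other genes of red cells were taken from lists of heme synthesis, red cell membrane and skeleton, erythroid regulators, further globins and other erythroid genes. Without the members, 48 of 49 listed genes were measured and 38 were tested. Of these, 2 were called higher and 1 lower, against 2.74% and 4.59% of all tested genes. At an adjusted p under 0.05 alone, 6 rose, 8 fell and 24 did not pass, with a median log2 fold change of -0.12 against -0.01 over all genes tested. These are 15.8% higher and 21.1% lower, near or below the 21.1% and 22.4% of all tested genes, so nothing particular to these lists is read from the counts. *Hbq1b*, a theta-type alpha globin and the only tested globin that is no member, had a log2 fold change of -0.52 (edgeR, adjusted p = 0.33). The summed CPM of the list, members included, was 360 to 398 in the control and 337 to 369 after LiCl for heme synthesis, 336 to 343 and 273 to 326 for the membrane and skeleton, 188 to 207 and 191 to 195 for the regulators, and 263 to 266 and 295 to 306 for the other erythroid genes. With *Tfrc* (104 ± 7.2 and 142 ± 5.3 CPM, SD, n = 3) taken out, the sums of the other erythroid genes overlapped between the groups. Those of the membrane and skeleton overlapped without *Aqp1* (31.4 ± 4.2 and 10.4 ± 1.1 CPM). *Gata1*, the master regulator of erythroid genes, had only 2 to 11 counts per sample, *Gfi1b* 1 to 11 and *Hemgn* 3 to 23, and these genes did not pass the filter on low counts. *Klf1*, the activator of adult beta globin, was tested at 6 to 19 counts and did not pass (log2 fold change -0.30; edgeR, adjusted p = 0.58).

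The called genes of these lists are known from other cells as well. *Tmod1*, a cap of actin filaments in the red cell skeleton and in muscle, rose from 2.98 ± 0.53 to 14.9 ± 2.0 CPM (SD, n = 3; log2 fold change 2.32, edgeR adjusted p = 6.37e-06). *Aqp1*, a water channel of red cells and of vessels, fell from 31.4 ± 4.2 to 10.4 ± 1.1 CPM (log2 fold change -1.59, edgeR adjusted p = 9.18e-06). *Myb*, a regulator of progenitors, rose from 3.10 ± 0.37 to 6.71 ± 0.90 CPM (log2 fold change 1.12, edgeR adjusted p = 0.00042). It did not reach the fold threshold when FPKM values were fitted with limma (log2 fold change 0.38 to 0.94).

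In heme synthesis, *Uros* (log2 fold change -0.61) and *Fech* (-0.15), which inserts iron, fell in the edgeR test, and 7 of 9 genes including *Alas2* did not pass. *Alad*, the gene of this list with the most counts, had a log2 fold change of 0.04 (edgeR, adjusted p = 0.66). *Fech* passed the adjusted p in only 1 of 6 fits that left out a replicate, the fit without LiCl replicate 1. Its adjusted p was up to 0.15 in these fits, whereas *Uros* passed in all 6. Of the membrane genes, *Sptb*, which encodes a spectrin of the red cell skeleton, rose by a log2 fold change of 0.82 (edgeR, adjusted p = 0.015), and *Epb41*, the most counted gene of that list, fell by 0.23 (adjusted p = 0.020). *Sptb* did not pass without control replicate 2 (adjusted p = 0.052), nor *Epb41* without control replicate 1, control replicate 3, LiCl replicate 1 or LiCl replicate 3 (adjusted p up to 0.087). Among the regulators, *Tal1* (-0.80), *Epor* (-0.67), the receptor of erythropoietin, and *Kit* (-0.42) fell, and *Zfpm1*, a cofactor of Gata1, rose by 0.28 on the log2 scale (edgeR, adjusted p = 0.0014). *Tfrc*, the transferrin receptor, rose from 104 ± 7.2 to 142 ± 5.3 CPM, a log2 fold change of 0.45 (edgeR, adjusted p = 0.00034).

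Markers of cells that are found beside red cells in embryonic vessels were compared as well. Over all tested genes, 2.74% were called higher and 4.59% lower. Of 10 endothelial genes, 0 were called higher and 1 lower, *Tek*, an angiopoietin receptor (log2 fold change -1.15, edgeR adjusted p = 0.00061). Without LiCl replicate 1, *Tek* was at -0.98 and no longer past the fold threshold, so 0 endothelial genes were called lower. Summed endothelial CPM was 590 to 753 in the control and 545 to 671 after LiCl, and overlapped. *Kdr*, the most counted gene of that list, had a log2 fold change of -0.30 (edgeR, adjusted p = 0.052).

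Of 10 macrophage genes, 1 was called lower, *Fcgr1*, an Fc receptor, at 1.57 ± 0.33 against 0.265 ± 0.078 CPM (log2 fold change -2.56, edgeR adjusted p = 0.00025). Its counts were low, at 35, 51 and 57 in the control and 7, 6 and 10 after LiCl. Without the fold threshold, 5 of the 10 fell and 1 rose (adjusted p under 0.05), against 22.4% and 21.1% of all tested genes. The list had a median of -0.53 on the log2 scale. The other genes that fell were *Cd68* (-0.57), *C1qb* (-0.65), *C1qc* (-0.77) and *Ptprc* (-0.72), and *Adgre1* rose (0.58). Except for *Cd68*, each of these 5 lost the adjusted p in at least 1 of the 6 fits that left out a replicate (up to 0.098). *Csf1r*, the most counted gene, had a log2 fold change of 0.02 (edgeR, adjusted p = 0.95). The summed macrophage CPM was 102 to 153 in the control and 94.2 to 125 after LiCl. Of 8 platelet and megakaryocyte genes, 5 were tested and 2 were called higher, against 2.74% of all tested genes. *Pf4*, platelet factor 4, rose from 0.844 ± 0.26 to 6.62 ± 1.4 CPM (log2 fold change 2.96, edgeR adjusted p = 2.38e-05) and *Ppbp* from 0.449 ± 0.17 to 1.10 ± 0.10 CPM (log2 fold change 1.28, edgeR adjusted p = 0.0095). The counts of *Ppbp* were low, at 8, 14 and 19 in the control and 31, 31 and 34 after LiCl. *Itgb3*, the most counted gene of this list, fell (log2 fold change -0.54, edgeR adjusted p = 0.012), though not without control replicate 3 (adjusted p = 0.051). Genes of this list therefore moved in both directions. Its summed CPM was 14.9 to 18.5 in the control and 18.8 to 22.8 after LiCl, and the groups overlapped with *Pf4* taken out.

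Genes of fetal liver hepatocytes were at or near 0. *Alb* had 3 to 14 counts per sample, *Serpina1a* and *Fgb* had 0 in all samples, and the summed CPM of the 8 genes was 0.730 to 0.869 in the control and 0.193 to 0.322 after LiCl. In heme and iron handling, *Slc40a1*, the iron exporter ferroportin, was called lower, from 169 ± 7.4 to 56.3 ± 4.2 CPM (log2 fold change -1.59, edgeR adjusted p = 3.96e-07), and *Fth1*, a ferritin chain with the most counts of that list, had a log2 fold change of -0.11 (edgeR, adjusted p = 0.12). Of the 11 genes of that list, 6 fell and 0 rose at an adjusted p under 0.05 alone, against 22.4% and 21.1% of all tested genes. The median log2 fold change of that list was -0.30. In the epithelium, *Foxa1* (-1.76) and *Krt19* (-1.20) were called lower (edgeR, adjusted p = 2.87e-06 and 7.77e-05), and *Krt8*, the most counted gene, fell by 0.59 on the log2 scale (adjusted p = 0.0017). At an adjusted p under 0.05 alone, 6 of 8 epithelial genes fell and 1 rose, against 22.4% and 21.1% of all tested genes. The gene that rose was *Epcam* (log2 fold change 0.37, edgeR adjusted p = 0.00067), while *Shh* was at 0.05 (adjusted p = 0.77). The summed epithelial CPM was 1060 to 1354 in the control against 797 to 836 after LiCl. Of 8 mesenchymal genes, 0 were called. By an adjusted p under 0.05 alone, 4 fell and 2 rose, against 22.4% and 21.1% of all tested genes. Those that fell were *Tbx18* (-0.58), *Sox9* (-0.25), *Bmp4* (-0.22) and *Gata6* (-0.22), and those that rose were *Tbx2* (0.27) and *Tbx3* (0.13). *Tbx3* did not pass without control replicate 2, control replicate 3, LiCl replicate 2 or LiCl replicate 3. The summed mesenchymal CPM was 1801 to 1921 in the control and 1744 to 1784 after LiCl. Of this sum, *Tbx18* held 368 ± 25.4 CPM in the control and 246 ± 10.7 CPM after LiCl (SD, n = 3). With this gene taken out, the mesenchymal sums overlapped between the groups. *Ptch1*, the most counted gene, had a log2 fold change of 0.10 (edgeR, adjusted p = 0.32). The part of these cell types in the globin values was not tested.

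**Figure D5:**
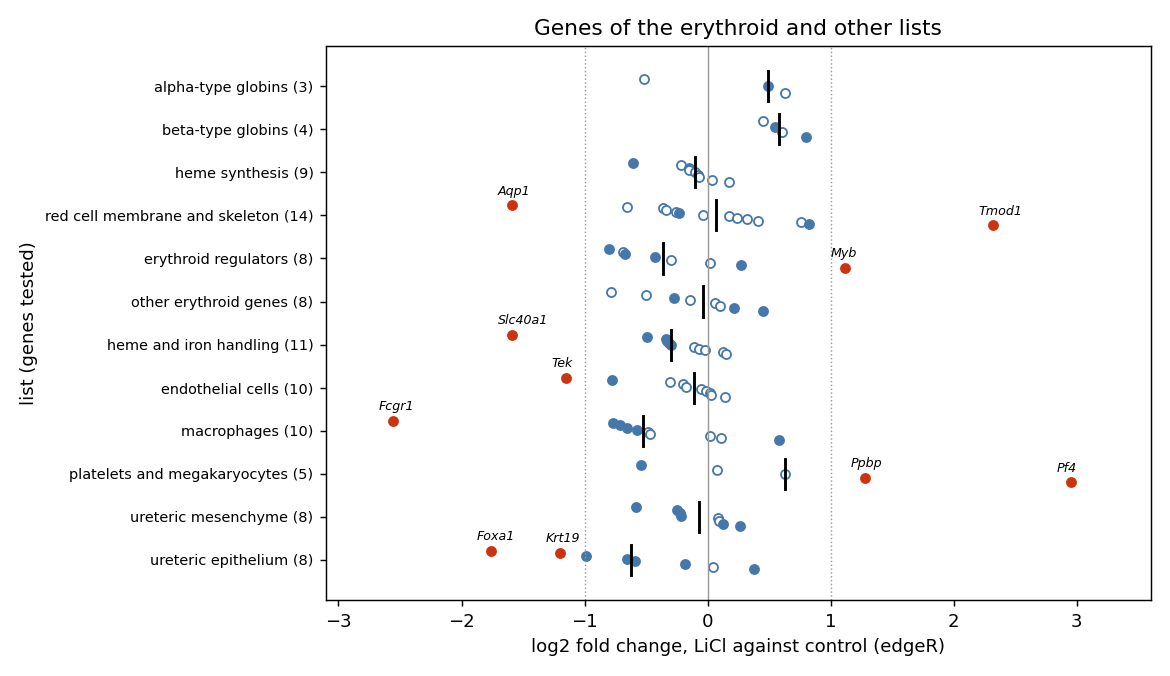
Log2 fold change after LiCl of every tested gene in 12 lists, with black bars for the list medians, filled points for an adjusted p under 0.05 and red points for called genes. The points of the beta-type globins all lie between 0.45 and 0.80, whereas each of the other erythroid lists has genes on both sides of 0.

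Of the genes outside the members, those whose log2 CPM followed the mean log2 CPM of the tested members most closely over the 6 samples were *Tubb2b* (Pearson r = 0.99), *H13*, *Ppp1ca*, *Gm8210*, *Hmgn2*, *Tmod4*, *Nutf2-ps1*, *Hsd3b6*, *Nom1* and *Akirin2* (r = 0.97 for the last), out of 15436 candidates with a mean of at least 1 CPM. They are given as a description over 6 samples that share their groups and depth, with no test. *Tubb2b* ran from 131 CPM in control replicate 1 to 172 CPM in LiCl replicate 2, a far smaller range than that of the globins. None of the 10 was in an erythroid list. The erythroid gene closest to the members was *Kel*, a blood group antigen (r = 0.86, rank 166).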

How the data were processed

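RNA-Seq counts were compared between 3 control and 3 LiCl samples, grouped by the treatment in the labels. The authors deposited raw counts per gene (not normalized) and FPKM values. The paper's methods name HISAT2 and featureCounts on GRCm39, while the submitters' processing notes list fastp 0.23, STAR 2.7, featureCounts 2.0 and DESeq2 1.40, so the aligner is uncertain. Deposited FPKM equalled counts divided by DESeq2's size factors and by a whole-number gene length in 100% of the genes checked (at least 50 counts, tolerance 0.02 bases). Symbols came from GENCODE vM21 (GRCm38) for 52073 of 56748 identifiers, the others holding 0.191% of the counts, and 120 of 121 listed symbols matched.

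Counts were tested with edgeR 4.0.16 (filterByExpr and TMM, then the quasi-likelihood test with Benjamini-Hochberg adjustment over 18188 genes) in R 4.3.3, with the thresholds of the paper. Ratios used FPKM and SciPy 1.17.1. Alternatives were RLE, library size only, members left out of the library sizes, DESeq2 1.42.0, other count filters, limma 3.58.1 on log2(FPKM + 1) or log2(FPKM + 0.1) at a mean FPKM of at least 0.5 or without filter, a replicate block, leave-one-out and no fold minimum. The scripts were tested on simulated data. The members and lists were chosen with earlier results of these data known. Named genes were all members, called or most counted genes of the lists, and the 10 genes most like the members. Further list genes past the adjusted p, and *Klf1*, *Gata1*, *Gfi1b*, *Hemgn*, *Kel* and *Shh*, were named after their values were seen. Samples with the same replicate number did not deviate together over all tested genes (correlation of deviations 0.03, -0.09 and 0.10). The labels do not say whether such samples belong together.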

Additional observations from a re-analysis of the deposited data

How the results depend on the processing

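The number of members called with the fold threshold was 0 in all settings except without control replicate 2, where *Hbb-bh1* was called (0 to 1 over the left-out replicates), and became 3 with no fold change minimum. The number that rose at an adjusted p under 0.05 was 3, but 6 with no filter, 6 with both first replicates left out (added after the data were seen), 1 with limma on log2(FPKM + 1) without filter, and 1 to 6 over the left-out replicates. With the replicate number as a block it was 6, but the labels do not say whether samples with the same number belong together. *Hbb-bs* was past the threshold in every setting run (log2 fold change 0.44 to 0.67, adjusted p up to 0.019), and the log2 fold change of the 6 tested globin members was above 0 in all of them. *Alas2* ranged from -0.067 (without LiCl replicate 2) to 0.39 and *Slc4a1* from -0.55 to 0.10 (without LiCl replicate 1) over the left-out replicates. Of the other erythroid genes, 2 to 4 were called higher and 1 to 2 lower over the left-out replicates, and 6 and 8 with no fold change minimum. In limma on log2(FPKM + 1), the log2 fold changes of *Myb* (0.38), *Tek* (-0.83) and *Ppbp* (0.52) did not reach the fold threshold. Nor did *Myb* on log2(FPKM + 0.1) (0.94) or *Fcgr1* on log2(FPKM + 1) without filter (-0.54). With at least 10 counts in every sample, 0 macrophage genes were called lower and 1 platelet gene higher. *Alad* ranged from -0.024 to 0.077 over the left-out replicates and was -0.043 with both first replicates left out. *Csf1r* ranged from -0.13 to 0.27 and was -0.020 with library size only and -0.087 with both first replicates left out.

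Differences of ratios, LiCl minus control, changed sign when single replicates were left out for the alpha-type to beta-type ratio (-0.0064 to 0.027), and, in percentage points, for embryonic globins in the beta-type sum (-0.83 to 0.16), *Hba-x* in the alpha-type sum (-0.13 to 4.88), *Hba-a1* against *Hba-a2* (-0.022 to 0.29), *Hbb-bs* against *Hbb-bt* (-3.73 to 3.09) and, as shares of all globins, *Hbb-bs* (-0.22 to 0.49), *Hba-a1* (-1.58 to 1.20) and *Hba-a2* (-0.055 to 0.0033). With both first replicates left out, *Hbb-bs* against *Hbb-bt* was 0.40 and *Hba-a1* as a share of all globins 1.32. The share of *Hbb-y* in *Hbb-y* plus *Hbb-bh1* stayed lower after LiCl over the left-out replicates (-0.84 to -0.54). The causes of these changes were not tested. With 3 samples against 3, changes within the spread of red cell RNA between samples were not detectable.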
